A study of Mus musculus with 10 samples.

Results

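Genes of the Trem2-Tyrobp receptor complex and of the disease-associated microglia programme, 10 in all, were followed in the hippocampus of hMAPT mice: Trem2, Tyrobp, Apoe, Cst7, Lpl, Itgax, Clec7a, Axl, Spp1 and Cd68. They were taken by symbol from a table of 21956 genes, and all 10 symbols had 1 row each. RNA had been sequenced from 10 mice of the genotype hMapt at 6 months of age. Of these, 5 had received AAV-circTau6, an adeno-associated virus carrying the circular RNA circTau6 of the tau gene, 80 days before sampling. The other 5 were labelled control, and the protocol calls them control-injected without naming what they were given. No interval since injection is recorded for these controls. Both groups share the hMapt genotype, so no mouse without it was measured, and strain, sex and the promoter of the vector are not named in the labels. By its title the series concerns tau pathology and circTau6, and the comparison of the groups asks which hippocampal transcripts differ after its delivery.

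Microglia are the resident phagocytes of the brain. Trem2 is a surface receptor of these cells that binds lipids, lipoproteins and cell debris, and it signals through Tyrobp (also called DAP12), an adaptor whose cytoplasmic ITAM recruits the kinase Syk. Around amyloid, myelin debris and dying neurons microglia are known to lower their homeostatic genes and to switch on a programme in which Tyrobp and Apoe come early, and Cst7, Lpl, Itgax, Clec7a, Axl and Spp1 come later and depend on Trem2.

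The 250 bases before the transcription start were read for 8 of the 10 genes from RefSeq (GRCm38.p6), all but Tyrobp and Lpl. They were searched on both strands for GAGGAAGT, a motif of the myeloid factor PU.1, and for its shorter core AGGAAG, which lies inside the first. They were also searched for TCANNTGA, a pattern drawn loosely around the motif of the MITF and TFE factors, with any base at N. A match to this pattern need not be a site of these factors. Shown are Spp1, the only member with GAGGAAGT in any of its listed promoters, and Cst7 and Trem2, the 2 members with TCANNTGA. Each is written 5′ to 3′ on the strand of the gene, and capitals mark every match. Spp1 is chr5:104434861-104435110 (plus strand), Cst7 chr2:150570165-150570414 (plus strand) and Trem2 chr17:48346151-48346400 (plus strand).
Spp1: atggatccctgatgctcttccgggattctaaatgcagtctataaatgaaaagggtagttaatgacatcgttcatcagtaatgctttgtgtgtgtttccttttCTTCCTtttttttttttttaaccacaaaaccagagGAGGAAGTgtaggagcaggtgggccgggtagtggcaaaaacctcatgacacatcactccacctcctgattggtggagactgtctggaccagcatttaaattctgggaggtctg
Cst7: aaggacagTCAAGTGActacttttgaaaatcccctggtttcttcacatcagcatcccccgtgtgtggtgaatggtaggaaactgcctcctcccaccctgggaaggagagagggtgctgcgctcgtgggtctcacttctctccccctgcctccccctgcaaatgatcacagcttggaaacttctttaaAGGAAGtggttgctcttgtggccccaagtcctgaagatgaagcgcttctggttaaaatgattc
Trem2: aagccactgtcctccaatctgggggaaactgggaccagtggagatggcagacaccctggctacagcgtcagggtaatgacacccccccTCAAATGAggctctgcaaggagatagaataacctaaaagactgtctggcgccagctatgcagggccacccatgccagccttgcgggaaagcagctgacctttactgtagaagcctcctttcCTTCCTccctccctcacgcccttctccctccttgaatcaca
GAGGAAGT was found in 1 of 8 members against 2.79% of 27025 genes with a promoter of this length, and AGGAAG in 5 of 8 (Apoe, Axl, Cst7, Spp1 and Trem2) against 32.3%. TCANNTGA was found in 2 of 8 against 8.11%. A member counts if any of its listed promoters holds the match. Apoe had AGGAAG at chr7:19698622-19698871, a promoter inside the gene, and not before its outermost start (chr7:19699189-19699438). Relative to the start, the longer motif lay at -113 to -106 in Spp1, and TCANNTGA at -242 to -235 in Cst7 and at -162 to -155 in Trem2. These matches describe letters in a window and were not tested for binding.

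Total counts were 14762952 to 17647138 per library. Choroid plexus transcripts were nearly lacking in 2 libraries: Ttr, the transthyretin gene of that tissue, had 650 counts in control replicate 2 and 411 in circTau6 replicate 5, against at least 28538 elsewhere. Each member is therefore given below by library. Hippocampal neuron markers such as Neurod6 were present, and their list of 8 summed to 1133 to 1314 CPM in control and 1033 to 1269 CPM in circTau6 libraries. CPM is the count relative to library size, scaled between libraries by edgeR's TMM method.

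None of the members passed the edgeR quasi-likelihood test across all genes, and most had somewhat higher values after circTau6. The test covered 14396 genes, of which 0% were called at an adjusted p under 0.05, and 8 members, of which 0 were called. At an unadjusted p under 0.05 the higher direction held 1 of 8 members (Tyrobp) and 2.58% of all genes, and the lower direction 0 of 8 and 1.85%. In limma voom the higher direction at this threshold held 4 of 8 members (Tyrobp, Itgax, Axl and Cd68) and 404 of 14396 genes. In edgeR the unadjusted p of Trem2, Itgax, Axl and Cd68 was 0.053 to 0.057. DESeq2 called 0 of 8 members and 0.0970% of all genes in the higher direction, and limma voom 0 of 8 and 0.0139%. With the replicate number as a block, edgeR called 0 of 8 members and 0.0278% of all genes. The remaining members, Cst7 and Clec7a, were below the count filter. Positive log2 fold changes (circTau6 against control) were found for 7 of 8 tested members and 49.9% of all genes, with medians of 0.26 and -0.00021. For 6 of the 10 members, Trem2, Tyrobp, Cst7, Itgax, Axl and Cd68, 4 of 5 circTau6 libraries lay above every control in CPM. This pattern was noticed after the values were seen. In TPM Axl had 3 of 5 above, and in raw counts Trem2 and Cst7 had 3 of 5 above. For Trem2 circTau6 replicate 5 had 7.62 CPM against 7.60 in control replicate 2. For Axl circTau6 replicate 2 had 52.7 CPM against 52.5 in control replicate 1. At least 4 of 5 lay above every control in CPM for 2.85% of all genes tested, which leave out Cst7. They lay below every control for 2.40%, which no member showed. None of the 10 separated the groups completely, which 0.472% of all genes did in the higher and 0.368% in the lower direction. Without the 2 libraries poor in choroid plexus transcripts edgeR gave log2 fold changes of 0.48 for Tyrobp, 0.34 for Trem2, 0.29 for Cd68, 0.14 for Axl, 0.13 for Apoe, 0.99 for Itgax, 0.69 for Spp1 and -0.31 for Lpl, none called. In whole tissue, a change in the number of cells of a type and a change in RNA per cell cannot be told apart.

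**Figure D1:**
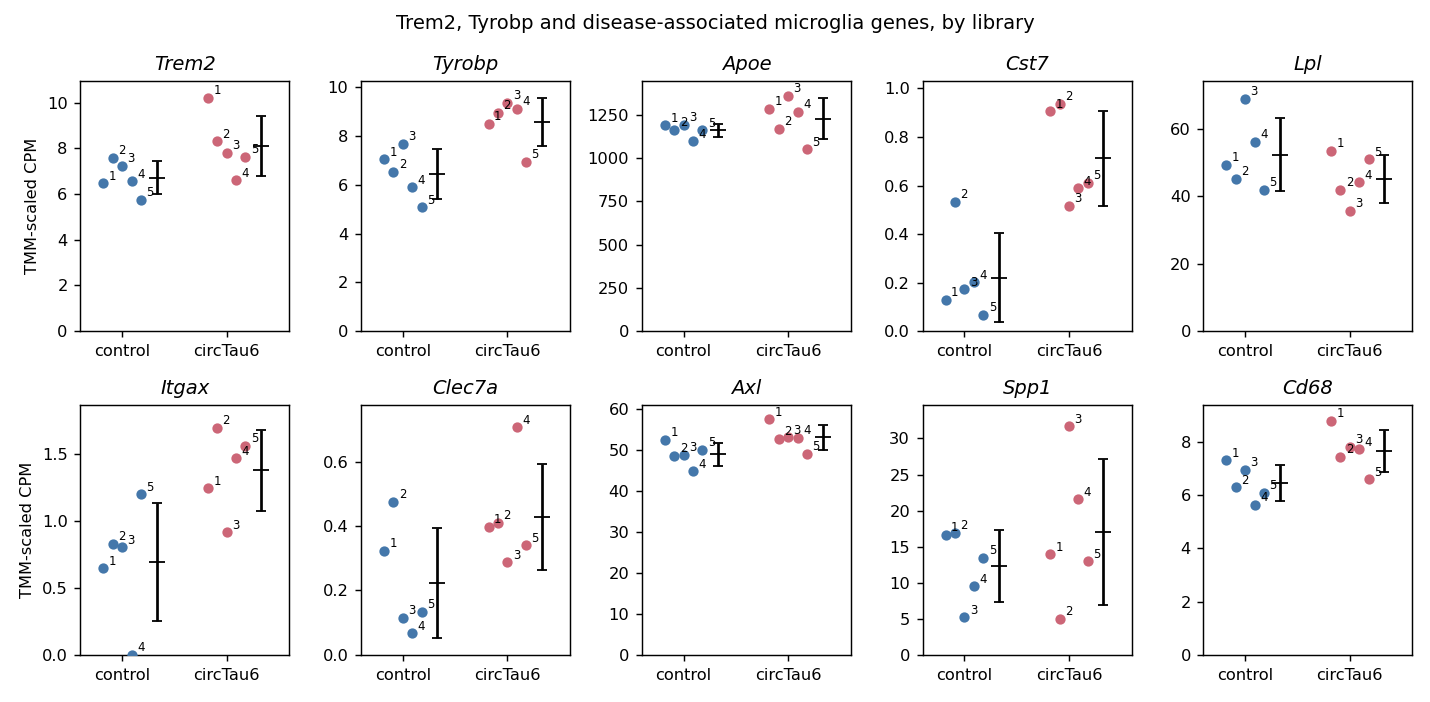
TMM-scaled CPM (vertical axes, from 0) of the 10 genes in each of 5 control (blue) and 5 circTau6 (red) libraries, with replicate numbers beside the points and bars for the mean ± SD of each group. In Tyrobp 4 circTau6 libraries lie above every control and replicate 5 does not, while in Spp1 the circTau6 libraries run from 4.98 to 31.7 CPM.

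Tyrobp (ENSMUSG00000030579, GRCm38 chromosome 7, 30413760 to 30417585, plus strand) had the lowest p of the tested members. Its level in control replicates 1 to 5 was 7.05, 6.53, 7.69, 5.89 and 5.07 CPM, and in circTau6 replicates 1 to 5 it was 8.50, 8.96, 9.36, 9.13 and 6.94 CPM. Replicates 1 to 4 of circTau6 exceeded every control, and replicate 5 lay inside the control range. Means over 5 libraries a group were 6.45 ± 1.01 CPM and 8.58 ± 0.97 CPM (SD). By edgeR the difference was 0.41 ± 0.13 (SE) in log2, at an unadjusted p of 0.00684 and an adjusted p of 0.981. Tyrobp had an unadjusted p under 0.05 in 23 of 23 alternative fits, and its adjusted p was never below 0.566 in them.

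Trem2 (ENSMUSG00000023992, chromosome 17, 48346401 to 48354147, plus strand), the receptor itself, had a smaller and less even difference. Control libraries had 6.47, 7.60, 7.23, 6.56 and 5.74 CPM and circTau6 libraries 10.2, 8.31, 7.81, 6.59 and 7.62 CPM, in replicate order. CircTau6 replicate 1 stood above the rest and replicate 4 lay inside the control range. Means were 6.72 ± 0.72 and 8.11 ± 1.33 CPM (SD). EdgeR gave a log2 fold change of 0.27 ± 0.13 (SE), adjusted p 0.981, and 0.17 without circTau6 replicate 1. The library with the highest Trem2, circTau6 replicate 1, had the second lowest Tyrobp of its group. Receptor and adaptor had a Pearson r of 0.61 and a Spearman rho of 0.59 over the 10 libraries (permutation p of 0.0609 and 0.0806, or 0.257 and 0.281 after adjustment over 115 correlations). Without the 2 libraries farthest from the median of Trem2, r was 0.38, and after group means were removed it was 0.30. Trem2 followed the scarce Cst7 more closely, with an r of 0.80 and a rho of 0.84 (permutation p of 0.00377 and 0.00381, adjusted 0.0723 and 0.0484), an r of 0.71 without the same 2 libraries and 0.68 after group means were removed.

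Downstream of the receptor, the list of Trem2-Tyrobp signalling genes had 17 of 18 members past the filter, and edgeR, DESeq2 and limma voom each called 0. Log2 fold changes were positive for 13 of 17, against 49.9% of all genes, with a median of 0.17. At an unadjusted p under 0.05 in edgeR the higher direction held 4 of 17, against 2.58% of all genes. The list summed to 336 to 347 CPM in control and 328 to 352 CPM in circTau6 libraries. The 3 genes with the lowest p were Inpp5d, a lipid phosphatase that restrains this pathway, at 0.41 ± 0.12 (SE), the kinase subunit Pik3cg at 0.45 ± 0.15 (SE) and the GTPase Rac2 of leukocytes at 0.68 ± 0.24 (SE). The kinase Syk and its effector Plcg2, named here after their values were seen, had 0.09 ± 0.19 (SE) and 0.17 ± 0.13 (SE). Hcst, which encodes the related adaptor DAP10, was below the filter. Of 9 other receptors that use Tyrobp, 7 were below the filter. Clec5a had 0.35 ± 0.22 (SE) and Siglech 0.11 ± 0.12 (SE), neither called.

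Apoe (ENSMUSG00000002985, chromosome 7, 19696109 to 19699188, minus strand), the apolipoprotein that Trem2 binds and that astrocytes make in bulk, was the most abundant member. It had 1191, 1163, 1193, 1099 and 1160 CPM in control and 1286, 1171, 1362, 1268 and 1053 CPM in circTau6 libraries. The circTau6 values spread on both sides of the controls, with replicates 1, 3 and 4 above all of them and replicate 5 below all of them. In log2 terms the groups differed by 0.08 ± 0.06 (SE), adjusted p 0.981 in edgeR. Replicate 5 is the circTau6 library poor in choroid plexus transcripts, and without it the value was 0.13. Without circTau6 replicate 3 it was 0.04. Over the 10 libraries Apoe had a Spearman rho of 0.88 and a Pearson r of 0.81 with the summed meningeal fibroblast markers (permutation p of 0.00169 and 0.00462, adjusted 0.0442 and 0.0746). Against the summed neuronal markers rho was -0.85 and r -0.85 (permutation p of 0.00269 and 0.00226, adjusted 0.0442 and 0.0653). Without the 2 libraries farthest from the median of Apoe, r was 0.57 and -0.67. With the choroid plexus sum rho was 0.84 and r 0.60 (permutation p of 0.00338 and 0.0682, adjusted 0.0484 and 0.269), and with Cd68 rho was 0.87 and r 0.75 (permutation p of 0.00224 and 0.0119, adjusted 0.0442 and 0.152). Without the same 2 libraries r was 0.26 and 0.91. With the summed astrocyte markers r was -0.68 and rho -0.61 (permutation p of 0.032 and 0.0663, adjusted 0.194 and 0.242). With the summed endothelial markers r was 0.72 and rho 0.64 (permutation p of 0.0207 and 0.0546, adjusted 0.17 and 0.233). Without those 2 libraries r was -0.27 and 0.74. Each point is a library, so both measures share its depth, scaling and dissection.

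Lpl (ENSMUSG00000015568, chromosome 8, 68880491 to 68907448, plus strand), the secreted lipase that hydrolyses lipoprotein triglycerides, was the one tested member with a negative value. It had 49.4, 45.3, 69.01, 56.2 and 41.9 CPM in control and 53.6, 41.98, 35.8, 44.2 and 50.9 CPM in circTau6 libraries. Control replicate 3 was the highest library and circTau6 replicate 3 the lowest, and the other 8 overlapped. EdgeR's estimate was -0.21 ± 0.15 (SE) in log2, adjusted p 0.981. It was -0.09 without control replicate 3 and -0.14 without circTau6 replicate 3. In the list of other lipid-handling genes 17 of 19 were tested and 0 called by edgeR, DESeq2 or limma voom, none had an unadjusted p under 0.05, and the median was 0.03. Abca1, the cholesterol exporter, had 0.11 ± 0.07 (SE), Clu, another apolipoprotein bound by Trem2, 0.12 ± 0.08 (SE), and Mylip, which degrades the LDL receptor, -0.17 ± 0.11 (SE).

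The late genes Cst7, Itgax and Clec7a were scarce, at 0.43 to 0.78 TPM on average in control libraries (TPM is abundance corrected for transcript length), and their values rest on few reads. Cst7 (ENSMUSG00000068129, chromosome 2, 150570415 to 150578944, plus strand), the cystatin F inhibitor of lysosomal cathepsins, had the largest ratio of the 10. It had 2, 9, 3, 3 and 1 counts in control and 16, 16, 9, 10 and 9 counts in circTau6 libraries. Control replicate 2 matched the lowest circTau6 counts, and the other 4 controls had at most 3. The sums were 18 and 60 counts, a ratio of 3.22 with a 95% exact interval of 1.87 to 5.79 that covers counting error only and not the spread between mice. Fitted without the low-count filter, edgeR gave a log2 fold change of 1.64 ± 0.53 (SE), an unadjusted p of 0.00632 and an adjusted p of 0.906. Without control replicate 2, where Cst7 passed the filter, it gave 2.26 and an adjusted p of 0.443.

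Itgax (ENSMUSG00000030789, chromosome 7, 128129547 to 128150657, plus strand) encodes CD11c, an integrin of these microglia and of dendritic cells. Control libraries had 10, 14, 14, 0 and 18 counts and circTau6 libraries 22, 29, 16, 25 and 23 counts. Control replicate 4 had none, which allows up to 0.201 CPM, and circTau6 replicate 3 was the one of its group inside the control range. Itgax had a log2 fold change of 0.97 ± 0.47 (SE), adjusted p 0.981 in edgeR, and 0.66 without control replicate 4. The value was 1.75 in limma voom and 0.39 in limma on log2(TPM + 1). Itgb2, the beta chain that pairs with CD11c, averaged 5.44 ± 1.19 CPM (SD) over the 5 controls and 7.89 ± 1.01 CPM (SD) over the 5 circTau6 libraries. Its log2 difference was 0.54 ± 0.16 (SE), adjusted p 0.981 in edgeR. Of the dendritic cell markers, 3 of 7 passed the filter with 0 called by edgeR, DESeq2 or limma voom: Zbtb46 had 0.23 ± 0.12 (SE), Clec9a 0.79 ± 0.41 (SE) and Flt3 -0.12 ± 0.13 (SE). Their sum was 16.02 to 19.95 CPM in control and 16.99 to 21.95 CPM in circTau6 libraries. Their part in Itgax was not tested.

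Clec7a (ENSMUSG00000079293, chromosome 6, 129461591 to 129472779, minus strand) encodes dectin-1, a receptor of fungal glucans that also signals through Syk, and is listed as a polymorphic pseudogene in GENCODE M21. It had 5, 8, 2, 1 and 2 counts in control and 7, 7, 5, 12 and 5 counts in circTau6 libraries. The ranges overlapped, with only circTau6 replicate 4 above every control. The ratio of the summed counts was 1.93 (95% exact interval 1.07 to 3.61, counting error only), and edgeR without the filter gave 0.91 ± 0.58 (SE) with an adjusted p of 0.906.

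**Figure D2:**
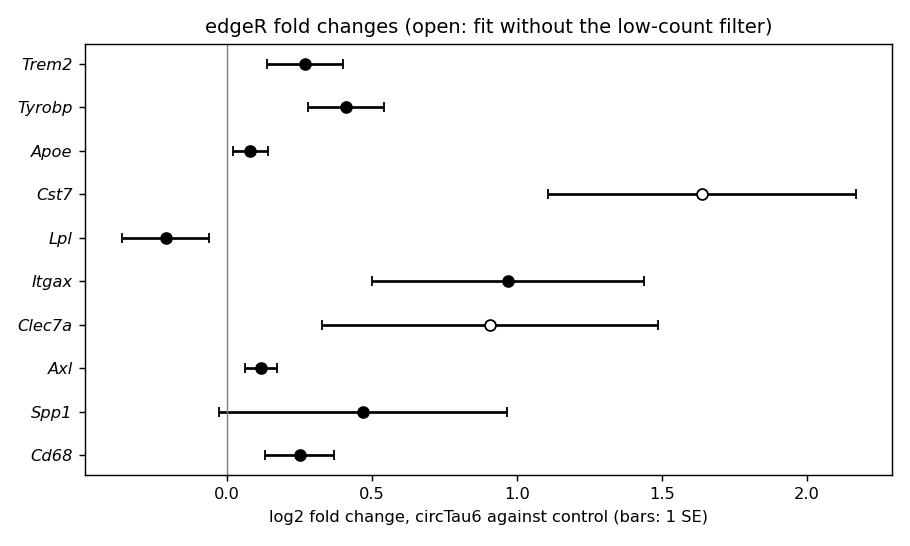
Log2 fold change of circTau6 against control (horizontal axis) for the 10 genes from edgeR, with bars of 1 SE; open points are Cst7 and Clec7a from the fit without the low-count filter. Lpl alone lies below 0 and Cst7 lies highest at 1.64, and no gene passed the test.

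Axl (ENSMUSG00000002602, chromosome 7, 25757273 to 25788705, minus strand), a receptor for phosphatidylserine on dying cells through its ligand Gas6, had a small and even difference. Control libraries had 52.5, 48.6, 48.8, 44.9 and 50.1 CPM and circTau6 libraries 57.5, 52.7, 53.1, 52.99 and 49.04 CPM. All circTau6 libraries but replicate 5 lay above the controls. The estimate was 0.12 ± 0.06 (SE) in log2, adjusted p 0.981 in edgeR. Of the other TAM receptors, their ligands and other receptors or bridging proteins for apoptotic cells, 7 of 8 were tested and 0 called by edgeR, DESeq2 or limma voom, with a median of 0.02. Mertk, the TAM receptor of homeostatic microglia and astrocytes, had 0.17 ± 0.09 (SE), Pros1, a ligand, 0.17 ± 0.11 (SE), and Mfge8, a bridging protein, -0.10 ± 0.07 (SE).

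Cd68 (ENSMUSG00000018774, chromosome 11, 69664213 to 69666153, minus strand), a glycoprotein of phagocyte lysosomes, had 7.31, 6.29, 6.95, 5.62 and 6.07 CPM in control and 8.78, 7.44, 7.81, 7.71 and 6.60 CPM in circTau6 libraries. As in Axl, replicate 5 was the only circTau6 library inside the control range. Between the groups the log2 difference was 0.25 ± 0.12 (SE), adjusted p 0.981 in edgeR. Cd68 followed Axl from library to library, with a Pearson r of 0.94 and a Spearman rho of 0.92 (permutation p of 0.0002 and 0.00049, adjusted 0.023 and 0.0442). The r was 0.83 without the 2 libraries farthest from the median of Axl and 0.90 after the group means were removed. With Tyrobp, Cd68 had an r of 0.84 and a rho of 0.90 (permutation p of 0.00254 and 0.00084, adjusted 0.0653 and 0.0442). This r was 0.85 without the 2 libraries farthest from the median of Tyrobp and 0.69 after the group means were removed. Among the proteins that work with the members, 12 of 12 were tested and 0 were called by edgeR, DESeq2 or limma voom. Of these 12, 10 had positive values, against 49.9% of all genes. Lgmn, a lysosomal protease, had 0.19 ± 0.06 (SE) and the lysosomal membrane gene Lamp1 0.08 ± 0.05 (SE).

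Spp1 (ENSMUSG00000029304, chromosome 5, 104435118 to 104441050, plus strand), the secreted phosphoprotein osteopontin, varied more within the groups than between them. It had 16.6, 16.9, 5.22, 9.51 and 13.4 CPM in control and 13.9, 4.98, 31.7, 21.5 and 12.99 CPM in circTau6 libraries. CircTau6 replicate 3 was the highest of the 10 libraries and replicate 2 the lowest. EdgeR estimated 0.47 ± 0.50 (SE) in log2, adjusted p 0.981. Single libraries moved this value: it was 0.12 without circTau6 replicate 3, 0.70 without circTau6 replicate 2 and 0.27 without control replicate 3. Markers of border macrophages and monocytes summed to 30.9 CPM in circTau6 replicate 3, against 10.05 to 21.8 CPM in the others. Spp1 had an r of 0.84 and a rho of 0.69 with this sum (permutation p of 0.00284 and 0.035, adjusted 0.0653 and 0.192), and r was 0.74 without the 2 libraries farthest from the median of Spp1. With the summed endothelial markers r was 0.81 and rho 0.84 (permutation p of 0.00519 and 0.00421, adjusted 0.0746 and 0.0484), and r was 0.92 without those libraries. The part of these cells in the Spp1 values was not tested.

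Other genes of the disease-associated programme, in a list of 29 without the members, had 26 tested and 0 called by edgeR, DESeq2 or limma voom. Positive values were found for 21 of 26, against 49.9% of all genes, with a median of 0.09. At an unadjusted p under 0.05 in edgeR 3 of 26 had higher values, against 2.58% of all genes, and 1 lower, against 1.85%. Cybb, the oxidase subunit of phagocytes, had 0.95 ± 0.26 (SE) with an adjusted p of 0.852 in edgeR, and B2m, the light chain of MHC class I, 0.60 ± 0.17 (SE). Ank, a pyrophosphate transporter, had -0.10 ± 0.04 (SE). Gpnmb and Fabp5, late markers chosen here after their values were seen, had -0.01 ± 0.20 (SE) and -0.02 ± 0.07 (SE).

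Homeostatic microglia markers, which the programme is known to lower, mostly had higher values after circTau6, and none was called. Their list had 11 of 12 genes in the table, of which 0 were called by edgeR, DESeq2 or limma voom. Of these 11, 10 had positive values, against 49.9% of all genes, and the median was 0.11. At an unadjusted p under 0.05, 5 of 11 had higher values, against 2.58% of all genes, and in 2 of 11 every circTau6 library lay above every control, against 0.472%. Csf1r, the receptor that microglia need to survive, had 0.17 ± 0.06 (SE) and Tmem119 0.25 ± 0.08 (SE). The summed markers were 397 to 427 CPM in control and 430 to 456 CPM in circTau6 libraries. All 5 circTau6 sums lay above every control sum, and the ratio of the means was 1.09. From library to library Cst7 had an r of 0.91 and a rho of 0.87 with this sum (permutation p of 0.00047 and 0.00219, adjusted 0.027 and 0.0442). Trem2 had an r of 0.72 and a rho of 0.87 with it (permutation p of 0.0155 and 0.00235, adjusted 0.17 and 0.0442). Since the groups do not overlap in this sum, part of each value is the difference between groups: after group means were removed, r was 0.71 for Cst7 and 0.50 for Trem2. Without the 2 libraries farthest from the median of the member, r was 0.87 and 0.81.

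**Figure D3:**
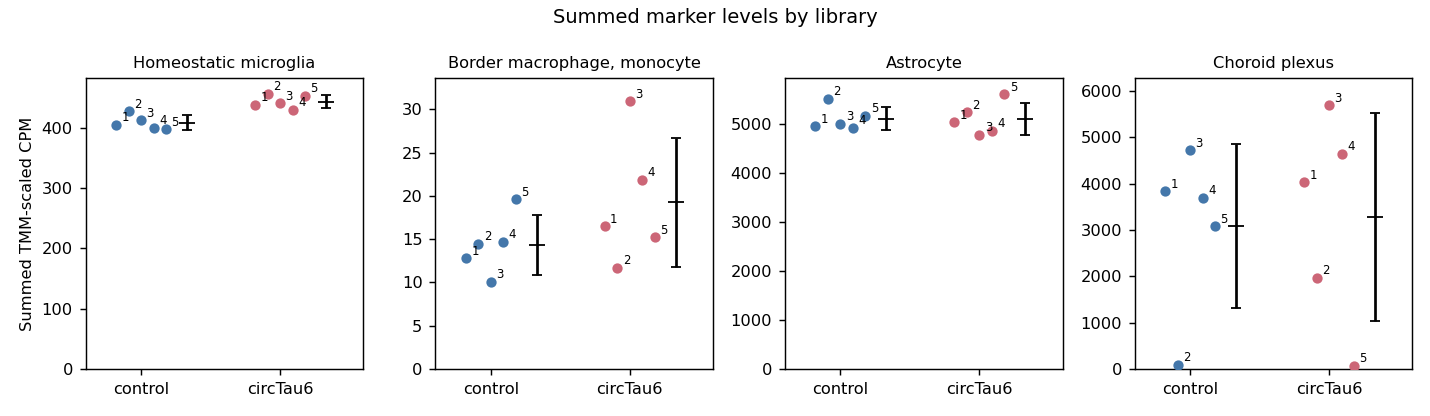
Summed TMM-scaled CPM (vertical axes, from 0) of homeostatic microglia, border macrophage and monocyte, astrocyte and choroid plexus markers in each control (blue) and circTau6 (red) library, with replicate numbers and bars for mean ± SD. Homeostatic sums are 397 to 427 in control and 430 to 456 in circTau6 libraries, and choroid plexus sums are 82.5 in control replicate 2 and 73.5 in circTau6 replicate 5, far under the others.

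Each member was also divided by this homeostatic sum in the same library, as a description without a test. The median log2 ratio of the group means over all 10 members was 0.22, and 0.14 without circTau6 replicate 3. It is not comparable with the fitted median of 0.26, which covers 8 members. Tyrobp came to 1.58% ± 0.23 (SD) of the sum over the 5 controls and to 1.94% ± 0.24 (SD) over the 5 circTau6 libraries, a ratio of 1.23, and 4 of 5 circTau6 libraries were above every control. Trem2 had a ratio of 1.11 with 2 of 5 above, and Cd68 1.10 with 1 of 5 above. Without circTau6 replicate 1 the log2 ratio went from 0.15 to 0.05 for Trem2 and from 0.13 to 0.07 for Cd68. Axl and Apoe came to 1.00 and 0.98. Cst7, Itgax and Clec7a kept ratios of 3.02, 1.82 and 1.80, and Lpl had 0.80.

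**Figure D4:**
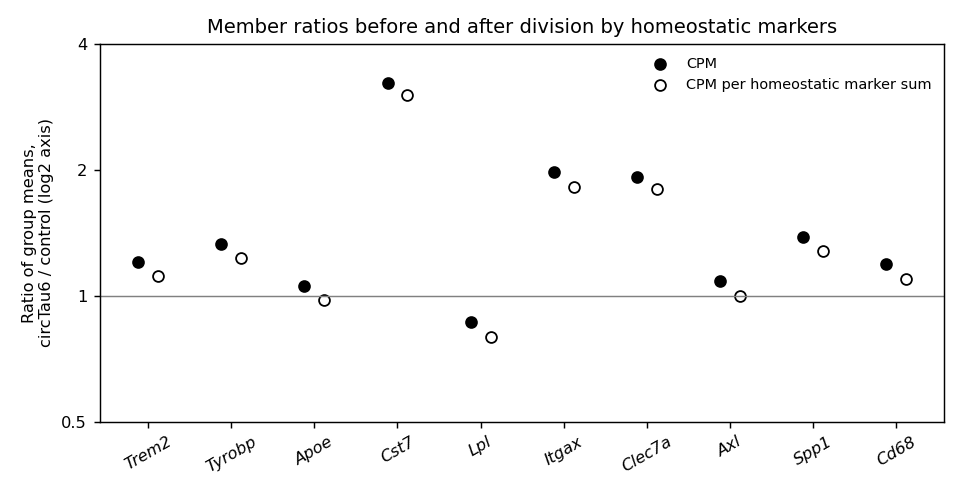
Ratio of group means, circTau6 over control, on a log2 axis for the 10 genes as CPM (filled) and as CPM divided by the summed homeostatic markers of the same library (open). Tyrobp is at 1.23 and Axl at 1.00 after the division, and Cst7 stays highest at 3.02.

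Of the marker lists of other cell types, none had a gene called by edgeR, DESeq2 or limma voom. For reading their counts, 49.9% of all genes tested had positive values. Border macrophage and monocyte markers, 5 of 8 tested, summed to 10.05 to 19.6 CPM in control and 11.7 to 30.9 CPM in circTau6 libraries. Positive values were found for 4 of 5, with a median of 0.31 beside the members' 0.26. At an unadjusted p under 0.05 in edgeR 1 of 5 had a higher value, against 2.58% of all genes. Their chemokine receptor Ccr2 averaged 0.39 ± 0.53 CPM (SD) over the 5 controls and 1.10 ± 0.38 CPM (SD) over the 5 circTau6 libraries. By edgeR Ccr2 had 1.52 ± 0.60 (SE) in log2, F13a1 0.64 ± 0.34 (SE) and Mrc1 0.29 ± 0.28 (SE). Astrocyte markers, 8 of 8 tested, summed to 4925 to 5510 CPM in control and 4778 to 5605 CPM in circTau6 libraries, with Gfap at 0.26 ± 0.13 (SE), Slc1a3 at 0.05 ± 0.05 (SE) and Aldh1l1 at 0.07 ± 0.08 (SE). Meningeal fibroblast markers had positive values for 7 of 8, a median of 0.25 close to the members' 0.26, and sums of 148 to 348 CPM in control and 116 to 458 CPM in circTau6 libraries. Slc6a13 had 0.41 ± 0.37 (SE), Col1a2 0.32 ± 0.43 (SE) and Lum 0.29 ± 0.36 (SE). Endothelial markers had positive values for 7 of 8 and a median of 0.13, with Cldn5 at 0.20 ± 0.12 (SE), Tek at 0.19 ± 0.12 (SE) and Slco1a4 at 0.10 ± 0.08 (SE). Hippocampal neuron markers went the other way, with negative values for 7 of 8 and a median of -0.12, and 3 of 8 had an unadjusted p under 0.05 in the lower direction, against 1.85% of all genes. These were Spink8 at -0.27 ± 0.10 (SE), Ociad2 at -0.14 ± 0.06 (SE) and Neurod6 at -0.14 ± 0.06 (SE). General neuron markers had negative values for 7 of 8 and a median of -0.04, with Map2 at -0.12 ± 0.07 (SE), Slc17a7 at -0.06 ± 0.04 (SE) and Snap25 at -0.05 ± 0.05 (SE). T and NK cell markers summed to 0.536 to 1.602 CPM in control and 1.16 to 2.71 CPM in circTau6 libraries, 4 of 5 above every control, with Cd3d and Klrb1c at 3 counts or fewer in every library and Trac, the one tested, at 1.18 ± 0.45 (SE). B and plasma cell markers summed to 20.5 to 34.4 CPM and 16.2 to 93.4 CPM, with Jchain at 1.33 ± 0.84 (SE) and Ighm at 0.57 ± 0.38 (SE). Neutrophil markers summed to at most 3.59 CPM, with Ly6g at 0 in all 10 and Mmp9 at 0.25 ± 0.39 (SE). Choroid plexus markers had Kcnj13 at -0.23 ± 0.90 (SE), Sostdc1 at 0.15 ± 0.77 (SE) and Prlr at -0.13 ± 0.69 (SE). The part of these cells in the member values was not tested.

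Per transcript length, Apoe stood far above the other members in control libraries at 2092 ± 64.4 TPM (SD, n = 5). Lpl at 34.9 TPM, Axl at 28.8, Tyrobp at 26.6, Spp1 at 21.6, Trem2 at 15.3 and Cd68 at 12.9 followed, and each overlapped the next in range. Clec7a at 0.78, Cst7 at 0.55 and Itgax at 0.43 TPM formed the lowest tier, apart from Cd68 and overlapping each other. In circTau6 libraries Tyrobp, at 35.8 ± 3.97 TPM (SD, n = 5), came second, but its range overlapped that of Axl.

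No single library was highest or lowest for all members. Control replicate 4 was the lowest of all 10 libraries for Itgax, Clec7a, Axl and Cd68, and control replicate 5 for Trem2, Tyrobp and Cst7. CircTau6 replicate 1 was the highest for Trem2, Axl and Cd68, replicate 2 for Cst7 and Itgax, and replicate 3 for Tyrobp, Apoe and Spp1. The genes most like Tyrobp over the 10 libraries, by Pearson r among 12944 genes, were Coa8 (r 0.96, rho 0.95), Ctso (0.95, 0.93), Tap1 (0.95, 0.93), Cabin1 (0.94, 0.95) and Mpdu1 (0.93, 0.94). Those most like Trem2 were Nsun2 (r 0.89, rho 0.79), Fbxo38 (0.88, 0.79), Slc7a5 (0.87, 0.84), Pld4 (0.86, 0.93) and Asah1 (0.85, 0.81). For Itgax they were Pyroxd2 (r 0.94, rho 0.76), Jakmip1 (0.91, 0.70), Srp54a (0.89, 0.43), Sdad1 (0.89, 0.54) and Rhog (0.88, 0.31). The ranks of Itgax agree less than its r, and 1 of its 10 values is the library at 0 counts. All of these genes were picked as the highest of many and carry no test.

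By the annotation in the authors' deposited table, 3 members (Axl, Trem2 and Tyrobp) carry the term apoptotic cell clearance, which is given to 22 of 21956 genes. Lipoprotein particle binding, given to 10 genes in the authors' deposited table, is carried by Apoe, Lpl and Trem2, and response to axon injury, given to 40, by Axl, Trem2 and Tyrobp. The authors' deposited table has no member with an FDR under 0.05, against 8 of all genes. The p-value in the authors' deposited table is under 0.05 for 3 members, Tyrobp at 0.00935, Cst7 at 0.00775 and Itgax at 0.0352, and for 672 of all genes. The log2 fold changes in the authors' deposited table are 0.43 for Tyrobp, 1.70 for Cst7 and 1.00 for Itgax.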

How the data were processed

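Hippocampal RNA of 10 mice was measured. Per the labels' protocols, RNA integrity numbers exceeded 8.0, ribosomal RNA was depleted, and strand-specific libraries were read in pairs of 150 bp. StringTie 1.3.1 and RSEM are named, per the submitters' processing notes, and no source used here gives the genome build. The authors deposited unnormalised counts and TPM per gene and library (per the file headers). The deposited log2 fold change and the deposited p-value and FDR are the authors' own comparison. Its group means equal the mean TPM of the columns within 0.001 TPM for all 21956 genes. In 108 entries a count of 0 stood beside a TPM above 0, so deposited counts may be rounded estimates.

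Counts were tested with edgeR 4.0.16 (R 4.3.3): filterByExpr, TMM, robust quasi-likelihood F test, Benjamini-Hochberg adjustment over 14396 genes, threshold 0.05, SE as fold change over the root of F. At the shallowest library 3 counts equal 0.204 CPM. The code was tested on simulated data. All pairs of replicates differed by more than sampling noise, at 4.13 to 25.2 chi-square per degree of freedom. P-values of the group tests set each difference against the spread between these samples. Alternatives were DESeq2 1.42.0, limma 3.58.1 (voom with quality weights, or log2(TPM + 1) and log2(TPM + 0.1)), a replicate block, sva 3.50.0 with 1 surrogate variable, other scalings, other filters and fewer libraries. Correlations used log2 CPM and 100000 permutations, two-sided.

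Members and lists were chosen with earlier results of these data known. Named genes are the 10 members, per list described those called or else the 3 tested genes with the lowest p, the 5 most correlated with Trem2, Tyrobp and Itgax, and Ttr; 1 gene that this rule names is not reported here. Coordinates are GENCODE M21 (GRCm38), where all 10 IDs matched.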

Additional observations from a re-analysis of the deposited data

Results flagged for a closer look

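Of 20 groups of 5 values examined for the 10 genes, 1 held a library far from the others of its group, and chance picks out about 5 in 100 such groups. Itgax had 0 CPM in control replicate 4, and 0.647 to 1.20 CPM in the remaining controls. The gap to the nearest control was 0.834 of the whole control range on the log2 scale. A small count is added before taking logs, so at 0 counts this gap depends on the amount added. The chance rate above need not hold for such a value. The same library was the lowest of the 10 for Clec7a, Axl and Cd68. Without it the Itgax log2 fold change was 0.66, against 0.97 with it.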

How the results depend on the processing

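All 23 alternatives left 0 members called, and each of the 8 tested members kept its direction in all of them. The median log2 fold change of the members ran from 0.18 to 0.34, but the fits do not all cover the same members. The 0.34 came from DESeq2 and from edgeR without the low-count filter, which include Cst7 and Clec7a. In fits with the same 8 members as the main fit it ran from 0.18 to 0.31. Over all genes, where edgeR called 0, DESeq2 called 14, limma voom with quality weights 2, edgeR with library totals alone 2, without the low-count filter 2 and with 1 surrogate variable 2. Leaving out single libraries gave 0 to 4 called genes: 1 without control replicate 1, 1 without control replicate 3 and 4 without circTau6 replicate 5. Without control replicate 2 and circTau6 replicate 5, both poor in choroid plexus transcripts, it called 3. The cause of these changes was not tested. Leaving out circTau6 replicates 3 and 5 together was added after the data were seen, and called 0. With library totals alone 525 of 677 genes at an unadjusted p under 0.05 had higher values, against 371 of 637 with TMM. With the replicate number as a replicate block edgeR called 4 genes and 0 members. The labels do not say that the numbers pair the mice. Deviations of same-numbered libraries correlated at -0.11 to 0.21, and in 1 of 5 a control correlated best with its own number. Control replicate 2 correlated best with circTau6 replicate 5, both poor in choroid plexus transcripts. Because tissue content enters these correlations, they cannot decide whether the mice were paired. Depth limits Cst7, Clec7a and Itgax, with 0 to 29 counts per library.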
